A study of Sus scrofa with 4 samples.

Results

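The ID family (inhibitors of DNA binding) consists of ID1, ID2, ID3 and ID4. These 4 genes were taken by name from the 26921 genes and loci of an RNA-seq study of ZBTB16 knockdown in pig testis cells, and all 4 were measured. They were selected on their values in the contrast of control with knockdown, so their differences between the groups are given as a description, with no test. ZBTB16 is a BTB zinc finger transcription factor and a marker of undifferentiated spermatogonia, the germ cells from which sperm production starts. The 2 control libraries came from cells of genotype WT and the 2 knockdown libraries from cells of genotype ZBTB16 knockdown. All 4 were labelled as immature spermatogonia of the pig, cultured from testis, and each group's RNA came from 2 independent experiments. The design plans a short hairpin RNA delivered by lentivirus. The labels are silent on a vector in the control cells, so the knockdown cannot be told apart from an effect of the virus.

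ID proteins have a helix-loop-helix (HLH) domain but lack the basic stretch with which related factors touch DNA. They pair with E proteins such as TCF3, TCF4 and TCF12, and so keep these from pairing with tissue-specific basic HLH (bHLH) factors on E-box sites. ID1, ID2 and ID3 are textbook target genes of BMP signalling through SMAD1, SMAD5 and SMAD4, and in the mouse testis ID4 marks the spermatogonia richest in stem cells.

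The genes lie on 4 chromosomes of the pig genome build Sscrofa11.1, and none overlaps another annotated gene. ID1 is at chr17:35316518-35317742 on the plus strand, with 2 exons and a transcript of 998 bases. ID2 is at chr3:127500759-127503207 on the minus strand, and its transcript has 1282 bases in 3 exons. ID3 is at chr6:81422541-81424169 on the minus strand, with an annotated transcript of 957 bases. The deposited data list a second ID3 transcript, which has no exons in the annotation used here. The deposited length of ID3 was 957 bases in all 4 libraries. ID4 is at chr7:15281535-15284895 on the plus strand and has a transcript of 2422 bases and a second record of 486 bases that holds the coding sequence alone. ID2 has the closest neighbour, the long noncoding RNA LOC106509912, which starts 302 bases away on the opposite strand. The sources used here do not say whether strand was used in the counting. This neighbour had at most 26.8 expected counts in a library, against at least 860 for ID2.

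The length of the block compared was set at 41 codons. The block of this length with the most residues shared by all 4 genes falls in the HLH domain. It is shown because this domain defines the family. Capitals mark the 23 codons that encode the same residue in all 4 genes, and the sequences are read 5′ to 3′ on the coding strand from the RefSeq annotation of Sscrofa11.1.
ID1 (chr17:35316809-35316931, plus strand): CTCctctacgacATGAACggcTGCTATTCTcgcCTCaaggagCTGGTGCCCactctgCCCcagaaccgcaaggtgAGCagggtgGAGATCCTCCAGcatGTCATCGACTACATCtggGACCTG
ID2 (chr3:127502886-127503008, minus strand): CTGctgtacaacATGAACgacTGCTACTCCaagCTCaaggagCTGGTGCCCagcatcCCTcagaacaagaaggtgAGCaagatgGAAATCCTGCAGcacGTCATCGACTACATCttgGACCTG
ID3 (chr6:81423837-81423959, minus strand): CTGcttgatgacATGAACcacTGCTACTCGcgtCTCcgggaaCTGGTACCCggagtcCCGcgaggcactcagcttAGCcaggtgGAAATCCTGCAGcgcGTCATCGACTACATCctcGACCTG
ID4 (chr7:15282145-15282267, plus strand): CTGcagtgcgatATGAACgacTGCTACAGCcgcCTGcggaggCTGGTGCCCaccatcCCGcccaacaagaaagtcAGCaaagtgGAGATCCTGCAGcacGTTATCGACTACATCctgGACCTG
Identity between pairs of encoded proteins was 63.4% to 78.0% within this block and 44.1% to 54.5% over all aligned positions. ID1 with ID2 and ID2 with ID4 were the pairs most alike in the block, while ID2 with ID3 were the least alike. The encoded proteins have 154 residues in ID1, 134 in ID2, 118 in ID3 and 161 in ID4.

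The 250 bases before the annotated gene start are shown for ID1 and ID3, which were both lower in the knockdown libraries, and for ID2, which was higher. Both strands were searched for 6 motifs: the SMAD1/5 element GGCGCC, the SMAD4 element GTCTAGAC and its core GTCT, the cyclic AMP response element core TGACG, the E-box CANNTG and the TATA core TATAAA. Capitals mark matches to the SMAD1/5 element, the full SMAD4 element, the cyclic AMP core and the TATA core. The short SMAD4 core is contained in the full element.
ID1 (chr17:35316268-35316517, plus strand): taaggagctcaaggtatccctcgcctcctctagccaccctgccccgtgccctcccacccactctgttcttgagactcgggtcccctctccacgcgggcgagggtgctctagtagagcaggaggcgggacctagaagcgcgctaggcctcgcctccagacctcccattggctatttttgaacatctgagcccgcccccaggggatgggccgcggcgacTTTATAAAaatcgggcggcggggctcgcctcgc
ID2 (chr3:127503208-127503457, minus strand): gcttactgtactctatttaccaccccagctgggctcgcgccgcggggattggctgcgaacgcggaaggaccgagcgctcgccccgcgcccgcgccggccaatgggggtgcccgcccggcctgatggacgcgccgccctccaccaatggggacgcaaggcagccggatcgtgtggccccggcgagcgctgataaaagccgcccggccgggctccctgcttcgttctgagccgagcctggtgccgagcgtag
ID3 (chr6:81424170-81424419, minus strand): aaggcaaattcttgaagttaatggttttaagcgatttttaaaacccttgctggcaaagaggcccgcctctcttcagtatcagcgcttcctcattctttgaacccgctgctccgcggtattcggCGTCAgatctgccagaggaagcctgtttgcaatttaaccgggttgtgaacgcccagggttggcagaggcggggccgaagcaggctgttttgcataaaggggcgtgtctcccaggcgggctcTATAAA
TATAAA lies 31 bases before the start of ID1, overlapping a match on the other strand, and 6 bases before the annotated start of ID3. It occurs in 9.77% of 19556 annotated promoters of this length, and in neither ID2 nor ID4. TGACG was found on the other strand 127 bases before ID3 and 224 bases before ID4, and 19.6% of promoters hold it. An E-box was found once in ID1 and once in ID2, against 61.9% of promoters with at least 1. GGCGCC (16.1% of promoters) and GTCTAGAC (0.164%) were found in none of the 4 windows, while GTCT (77.7%) had 2 matches in ID1 and 1 in ID3. GC content was 64.4% in ID1, 71.6% in ID2, 52.4% in ID3 and 76.8% in ID4, against a median of 57.6% over all promoters. A match is a string of letters and not a measured binding site. Sequence outside these 250 bases was not searched, so an element absent here may lie elsewhere.

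The libraries held 15983390 to 18500447 expected counts, RSEM's estimate of fragments per gene, and replicates of a group were close. Fragment length differed between the groups: fragments averaged 325.7 and 326.7 bases in control, and 266.4 and 267.3 bases after knockdown. The cause of this difference was not tested. Over all tested genes the median log2 change was -0.42 for transcripts of 500 to 1000 bases (884 genes), -0.23 for 1000 to 1500 bases (1416 genes) and -0.06 for 2000 to 2500 bases (1717 genes). ZBTB16 itself had 1.77 and 1.76 FPKM (fragments scaled by transcript length and by the number of mapped reads) in control and 1.37 and 1.34 in knockdown, a log2 change of -0.36 ± 0.109 (SE; edgeR's quasi-likelihood test, adjusted p = 0.00338). That call was lost with DESeq2 (-0.36, adjusted p = 0.109) and with limma on log2(TPM + 1) (-0.11, adjusted p = 0.0784). Marker genes chosen for the cell types of the testis did not sit mainly with germ cells. Summed over 14 germ cell markers the level was 147 and 145 FPKM in control and 109 and 104 in knockdown, most of it UCHL1. Of 10 tested, 2 rose and 4 fell, against 22.7% higher and 23.8% lower over all genes. ZBTB16, the target of the knockdown, is among the 4 that fell. DDX4 stayed between 1.86 and 2.3 FPKM and NANOS2 between 0 and 0.27. Summed Sertoli cell markers reached 787 and 776 FPKM in control and 951 and 976 in knockdown, mostly CLDN11. Of 10 tested, 5 rose and 2 fell, against the same shares over all genes. Summed peritubular and stromal markers reached 6970 to 7320 FPKM, of which ACTA2 alone gave 3198.13 to 3508.21. The other lists were lower: Leydig cell markers summed to 214 to 257 FPKM, with STAR at 0.19 to 0.38, leukocyte markers to 36.1 and 39.9 in control and 25.4 and 28.0 in knockdown, and endothelial markers to 14.4 to 16.9.

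ID3 was the most abundant member in every library, followed by ID1, ID2 and ID4. It had 335.58 and 344.72 FPKM in control and 219.54 and 216.03 in knockdown. Both knockdown libraries lay below both control libraries. The means were 340.0 ± 6.46 (SD, n = 2) and 218.0 ± 2.48 (n = 2), a ratio of 0.64. From the expected counts, which were 3667 and 3478 against 2809 and 2469, the fitted log2 change was -0.49 ± 0.0311 (SE), or 0.71-fold with a 95% interval of 0.68 to 0.74. This interval, like those of the other members, comes from the SE of this fit and does not cover the choice of processing. Over 17 alternative ways of processing the value for ID3 ran from 0.64-fold to 0.908-fold. By FPKM the gene ranked 303 to 310 among 15763 tested genes in control and 384 to 394 in knockdown. In these bulk libraries fewer cells expressing a gene and less RNA per cell cannot be told apart.

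ID1, like ID3 a gene with a transcript under 1000 bases, had 259.02 and 258.72 FPKM in control and 163.2 and 160.23 in knockdown. The groups did not overlap, and the control libraries were nearly equal. Means were 259.0 ± 0.212 and 162.0 ± 2.1 FPKM (SD, n = 2 each), a ratio of 0.625. Expected counts were 3014 and 2780 in control and 2212 and 1940 in knockdown, which gave a log2 change of -0.54 ± 0.034 (SE), or 0.689-fold with a 95% interval of 0.658 to 0.721. ID3 exceeded ID1 by 1.3 and 1.33 times in control and by 1.35 times in both knockdown libraries, so their ratio moved little while both levels were lower.

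ID2 was the member that was clearly higher in knockdown. Its level was 53.97 and 56.27 FPKM in control and 94.37 and 91.27 in knockdown, with no overlap. Means were 55.1 ± 1.63 and 92.8 ± 2.19 FPKM (SD, n = 2 each), a ratio of 1.68. The counts were 893 and 860 in control and 1775 and 1534 in knockdown, giving a log2 change of 0.86 ± 0.0462 (SE), or 1.81-fold with a 95% interval of 1.7 to 1.93. Its FPKM rank moved from 1861 and 1783 in control to 940 and 980 in knockdown.

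ID4 was the least abundant member, and in the count fit its change was the smallest of the 4. With length and GC trends removed the value of ID3 was the smallest instead (-0.14 against 0.24), and with limma on log2(TPM + 1) ID3 and ID4 were equal in size (-0.42 and 0.42). The GC content used for ID4 was the plain mean of its annotated transcripts (72.6% and 47.4%), whatever their share of the counts. With the length trend alone removed ID4 was still the smallest (0.17, against -0.25 for ID3). ID4 had 24.53 and 24.59 FPKM in control and 26.94 and 29.94 in knockdown. The groups did not overlap, but the knockdown libraries lay further apart from each other than the controls did. Expected counts were 889 and 824 in control and 1019 and 902 in knockdown. The fitted log2 change was 0.11 ± 0.0517 (SE), or 1.08-fold with a 95% interval of 1.0 to 1.16, and the ratio of mean FPKM was 1.16.

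**Figure D1:**
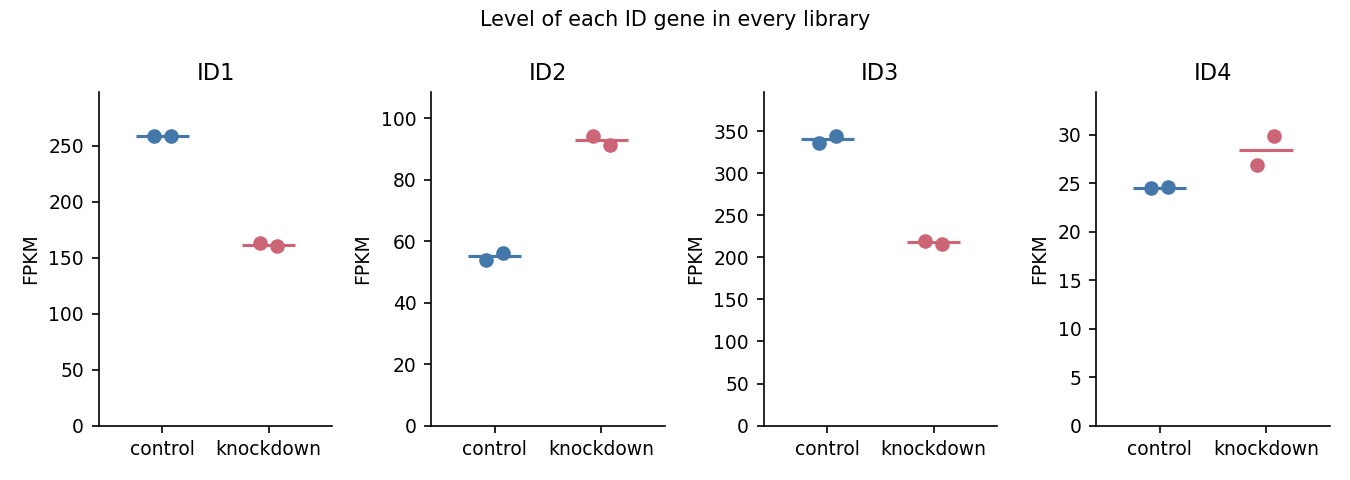
FPKM of each ID gene (vertical axes, each from 0 with its own scale) in the 2 control and 2 knockdown libraries. Points are libraries and lines are group means. ID1 and ID3 lay lower in both knockdown libraries, ID2 higher by 1.68 times in the mean, and ID4 higher by 1.16 times.

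By the rule used for all genes (edgeR, adjusted p under 0.05), ID1 and ID3 counted among the lower genes, ID2 among the higher, and ID4 among neither. The same rule called 46.4% of the 15763 tested genes, 22.7% as higher and 23.8% as lower. FPKM values of the groups did not overlap for any of the 4 members, nor for 70.4% of all tested genes. As the members were selected on this contrast, nothing is read from these counts.

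Because ID1 and ID3 were lower and ID2 was higher, the make-up of the family differed. ID1 and ID3 together made up 88.3% and 88.2% of the family's summed FPKM in control and 75.9% and 75.6% in knockdown. The share of ID2 was 8.02% and 8.22% in control and 18.7% and 18.3% in knockdown. The share of ID4 was 3.64% and 3.59% in control and 5.34% and 6.02% in knockdown. The summed level of all 4 genes was 673.1 and 684.3 FPKM in control and 504.0 and 497.5 in knockdown. In TPM, another deposited unit, the sum was 909.8 and 921.8 in control and 793.8 and 786.0 in knockdown. This is a smaller relative difference, so its size depends on the unit. ID1 exceeded ID2 by 4.8 and 4.6 times in control but by 1.73 and 1.76 times in knockdown. ID3 exceeded ID2 by 6.22 and 6.13 times in control and by 2.33 and 2.37 times in knockdown.

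**Figure D2:**
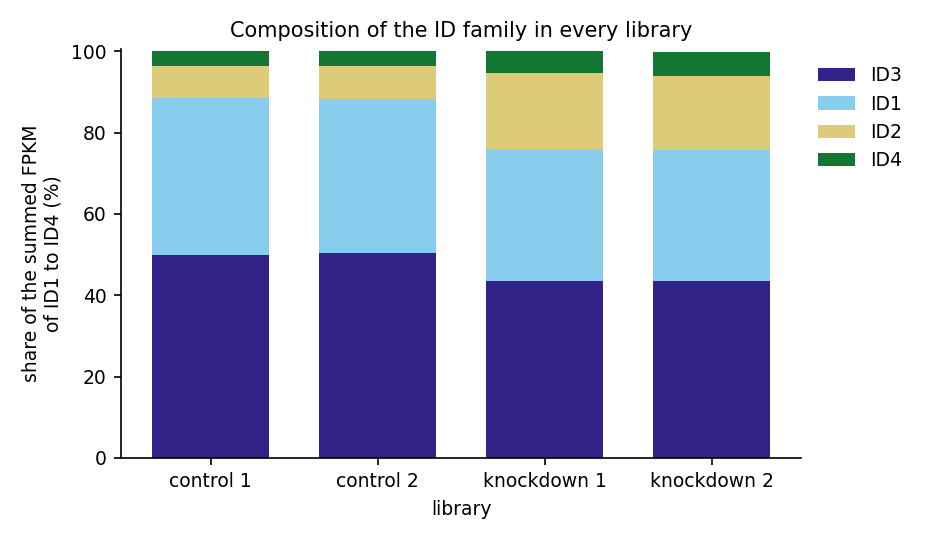
Share of the summed FPKM of ID1 to ID4 (vertical axis, %) held by each gene in each library (horizontal axis). ID3 and ID1 together fill 88.3% and 88.2% of the control bars and 75.9% and 75.6% of the knockdown bars, and ID2 takes the larger part of the difference.

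The size of the differences for ID1 and ID3 depended on how transcript length and GC content were handled, and that for ID2 was larger with these trends removed. Of the medians given above, the -0.42 of the length band that holds ID1 and ID3 lies on the same side as their values. The -0.23 of ID2's band lies on the opposite side from ID2. At 998 and 957 bases ID1 and ID3 are near the top of their band, so -0.42 describes the band and not their own length. With the trend of length removed from each library, log2 changes were -0.31 for ID1, -0.25 for ID3, 1.03 for ID2 and 0.17 for ID4. With the trends of length and GC content removed, they were -0.19 for ID1, -0.14 for ID3, 1.01 for ID2 and 0.24 for ID4. Over all 17 alternatives ID1 ran from -0.68 to -0.19, ID3 from -0.64 to -0.14, ID2 from 0.74 to 1.03 and ID4 from 0.10 to 0.42. The sign of each member was thus the same in every alternative that was run. The gap between ID2 and ID1 stayed over 1 log2 unit in each of them.

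**Figure D3:**
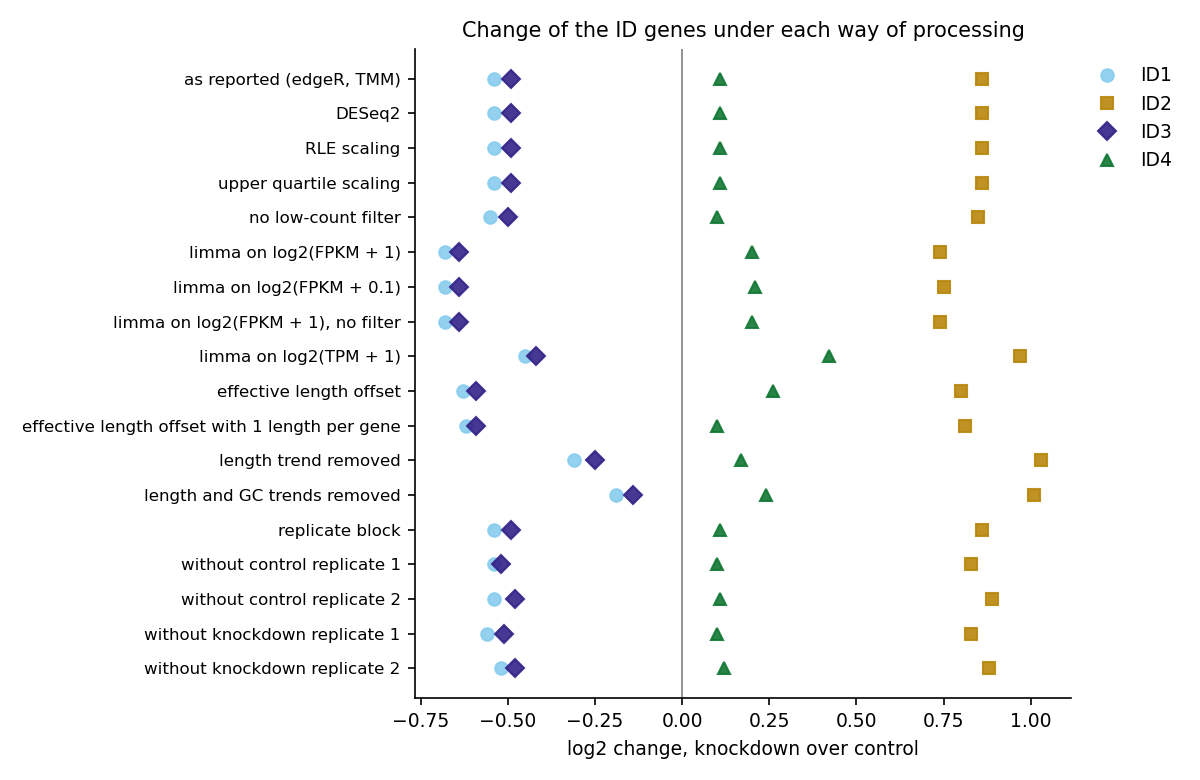
Log2 change of each ID gene, knockdown over control (horizontal axis, 0 marked), for the reported fit and 17 alternatives (vertical axis). ID1 and ID3 stay left of 0 and move closest to it, at -0.19 and -0.14, once trends of length and GC content are removed, while ID2 stays between 0.74 and 1.03.

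For ID4 the deposited gene length itself changed between libraries. It was 2422 bases in both controls, 2310 in the first knockdown library and 2087 in the second. As a weighted mean of the 2 annotated transcripts, this corresponds to 0% of the coding-only transcript in both controls, 5.8% in the first knockdown library and 17.3% in the second. Counts scaled to library size (CPM, with TMM) were 51.2 and 51.3 in control and 55.5 and 54.9 in knockdown. The higher FPKM of the second knockdown library thus came with a shorter assigned length and not with a higher CPM. With each library's own effective length as an offset the log2 change was 0.26, and with 1 length per gene in all libraries it was 0.10. The 486-base record holds no untranslated sequence.

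**Figure D4:**
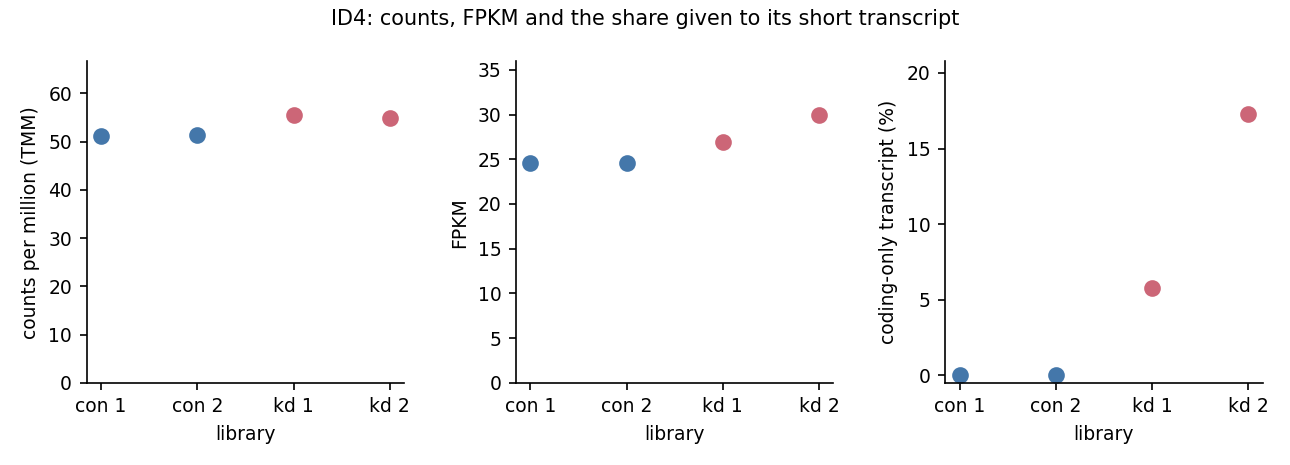
ID4 in control (con, blue) and knockdown (kd, red) libraries: CPM (counts scaled to library size, with TMM), FPKM, and the share of the coding-only transcript computed from the deposited gene length (%). CPM stays between 51.2 and 55.5, while the share runs from 0% in both controls to 17.3% in the second knockdown library, which also has the highest FPKM.

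The genes whose profiles over the 4 libraries lay closest to a member were found among 6569 named genes with a mean of at least 10 FPKM. Likeness was the distance between deviations of log2(FPKM + 1) from each gene's mean. Closest to ID1 were SELENOS (distance 0.0112), RPL17 (0.012) and CLIC1-2 (0.013), and closest to ID3 were OGFR (0.0199), RBM8A (0.0199) and CADM4 (0.0257). Such profiles were common, with 175 genes within 0.1 of ID1 and 189 within 0.1 of ID3. ID4 had 311 genes within that distance, led by UBQLN2 (0.0243), TFRC (0.0275) and MAP4K3 (0.0279). This likeness is in FPKM, and ID4's FPKM step between the knockdown libraries came with a shorter assigned length and not a higher CPM. The profile of ID2 was shared by few genes, with 7 within 0.1. The nearest was GATA4 (distance 0.0378), a zinc finger factor of gonadal somatic cells and one of the Sertoli markers, at 38.11 and 40.05 FPKM in control and 65.79 and 62.96 in knockdown. FOXP1 (0.0737) and CD55 (0.0822) came next. By counts GATA4 differed less than ID2, with a log2 change of 0.33 ± 0.0301 (SE), so the likeness holds for FPKM only.

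Among the proteins that ID factors bind, the E protein TCF12 had 27.63 and 28.34 FPKM in control and 33.49 and 33.02 in knockdown. It rose by a log2 of 0.27 ± 0.0332 (SE, adjusted p = 2.5e-12), and this call was kept in all 17 alternatives. TCF4 rose by 0.12 ± 0.0457 (adjusted p = 0.0189), a call that was lost without control replicate 1 (adjusted p = 0.362), without knockdown replicate 1 (0.187) and with length and GC trends removed (0.925). TCF3, at 15.22 and 14.21 FPKM in control and 19.15 and 18.74 in knockdown, had a log2 change of 0.08 by counts (adjusted p = 0.137). It passed as higher with the effective length offset (0.42, adjusted p = 2.44e-08), with limma on log2(FPKM + 1) (0.34, adjusted p = 0.0116) and log2(TPM + 1) (0.57, adjusted p = 0.00576), and with length and GC trends removed (0.11, adjusted p = 0.0376). Summed E protein levels were 54.7 and 55.5 FPKM in control and 67.8 and 66.3 in knockdown, well below the family's own summed level in all 4 libraries.

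Most tissue-specific bHLH factors, the partners that E proteins need for lineage genes, were scarcely present: 38 of 47 stayed below 1 FPKM in every library. Of 16 tested, 5 fell and none rose, against 23.8% lower and 22.7% higher over all genes, with a median log2 change of -0.30 against 0.00. With length and GC trends removed, 2 of 16 were lower, against 3161 of 15763 over all genes, and the median of the list was -0.21. TCF23, an HLH factor without a typical DNA-binding stretch, had 15.06 and 14.58 FPKM in control and 10.42 and 10.84 in knockdown and fell by 0.44 on the log2 scale (SE 0.0516, adjusted p = 9.27e-14). It alone of the 5 kept its call in every alternative. MSC fell by 0.34 (adjusted p = 4.37e-05), but with length and GC trends removed it had -0.13 (adjusted p = 0.141). MESP2 fell by 0.47 (adjusted p = 0.00398; 0.139 without control replicate 1), and TWIST2 fell by 0.38 (adjusted p = 0.0486; 0.442 when control replicate 1 was left out, and 0.231 and 0.0624 when knockdown replicate 1 or 2 was). TWIST1, a mesenchymal factor, was at 15.29 to 16.93 FPKM with overlapping groups (log2 change 0.05, adjusted p = 0.645; with the length trend removed 0.20, adjusted p = 0.0263).

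Among HES and HEY genes, which encode bHLH repressors downstream of Notch, and BHLHE40 and BHLHE41, 2 of 8 tested rose and 2 fell. Over all genes 22.7% were higher and 23.8% lower. HEY2 had 9.71 and 9.03 FPKM in control and 13.95 and 14.2 in knockdown, a rise of 0.57 ± 0.0774 (log2, SE; adjusted p = 1.01e-10). HES6, a family member that opposes HES1, had 8.09 and 8.49 FPKM in control and 4.41 and 4.44 in knockdown, a fall with a log2 change of -0.81 ± 0.137 (adjusted p = 1.09e-07). Both calls were kept in all alternatives. HES1 fell by 0.28 on the log2 scale (adjusted p = 0.00726), but without knockdown replicate 2 the adjusted p was 0.11 and with length and GC trends removed the value was 0.06. BHLHE40 rose by 0.12 (adjusted p = 0.0239), with an adjusted p of 0.0519 to 0.127 when any 1 library was left out. Over the 3 lists of HLH factors 11 of 27 tested genes (40.7%) passed, which is close to the 46.4% over all genes: 4 rose and 7 fell. Of all called genes 49.5% were higher with length and GC trends removed and 75.6% with limma on log2(TPM + 1). Among the HLH factors 4 rose and 3 fell in the former, and 6 rose and 2 fell in the latter. The count was 6 when control replicate 1 was left out, and 7 when either knockdown replicate was left out.

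BMP signalling, the pathway best known for inducing ID1 to ID3, had 20 of 41 tested genes past the threshold (48.8%, against 46.4% over all genes): 17 rose and 3 fell. Over all genes 22.7% were higher and 23.8% lower. The median log2 change of the 41 was 0.12. Of 37 tested by limma, 7 rose and 2 fell on log2(FPKM + 1), and 24 rose and 2 fell on log2(TPM + 1). Over all genes limma on log2(FPKM + 1) called 1926 higher and 3683 lower of 13072. On log2(TPM + 1) it called 5382 higher and 1737 lower of 13796, with a median log2 change of 0.15. Of the 20 calls, 5 rises and 2 falls were kept in all 17 alternatives: BMP2, BMPR2, SMAD4, FSTL1 and TOB1 rose, and NBL1 and FSTL3 fell. The share of all called genes that kept their call is not given here, so nothing about the pathway is read from this number.

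Of the BMP ligands, 2 of 9 tested rose and none fell, against 22.7% higher and 23.8% lower over all genes. BMP2 had 21.19 and 20.02 FPKM in control and 27.17 and 25.3 in knockdown, a rise of 0.36 ± 0.0553 (log2, SE; adjusted p = 1e-08). BMP4 rose by 0.23 (adjusted p = 0.00775), which was lost without control replicate 1 (adjusted p = 0.0661) and without knockdown replicate 2 (0.0664). GDF9 had a log2 change of 0.35 (adjusted p = 0.0616), and passed without control replicate 1 (0.57, adjusted p = 0.0207) and with length and GC trends removed (0.52, adjusted p = 0.00441). GDF6 had 0.19 (adjusted p = 0.361), and passed with limma on log2(TPM + 1) (0.29, adjusted p = 0.0343). Receptors and co-receptors gave 6 rises among 10 tested, against 22.7% higher over all genes. With limma on log2(FPKM + 1) 1 of 10 rose, against 1926 of 13072 over all genes. The type II receptor BMPR2 had 12.09 and 12.05 FPKM in control and 17.91 and 17.15 in knockdown, a rise of 0.44 ± 0.0353 (adjusted p = 9.29e-24). The type I receptor ACVR1 rose by 0.17 (adjusted p = 0.000623) and the co-receptors ENG by 0.14 (adjusted p = 0.00032) and RGMA by 0.40 (adjusted p = 0.000107), though limma on log2(FPKM + 1) gave these 3 genes adjusted p-values of 0.0741, 0.0699 and 0.0504. BMPR1A rose by 0.26 by counts (adjusted p = 6.27e-08) and had 0.04 by FPKM (limma, adjusted p = 0.504).

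Of the SMADs that carry the BMP signal, the shared partner SMAD4 had 41.37 and 40.99 FPKM in control and 47.3 and 47.7 in knockdown, a rise of 0.24 ± 0.0322 (log2, SE; adjusted p = 8.33e-11). SMAD1 overlapped between the groups (21.4 to 22.41 FPKM, log2 change 0.01, adjusted p = 0.874; 0.22, adjusted p = 0.0249 with limma on log2(TPM + 1)). SMAD5 had -0.10 (adjusted p = 0.0643), and passed as lower with the replicate block (adjusted p = 0.0416) and with length and GC trends removed (-0.29, adjusted p = 1.72e-09). SMAD9 rose by 0.12 (adjusted p = 0.021), lost without control replicate 1 (0.0864), control replicate 2 (0.117) or knockdown replicate 2 (0.163). These are transcript levels, and phosphorylation of the SMADs was not measured in these libraries.

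Secreted antagonists hold BMP ligands or the related activins away from their receptors. They moved in both directions, with 3 rises and 3 falls among 9 tested, against 22.7% higher and 23.8% lower over all genes. NBL1 had 103.18 and 102.99 FPKM in control and 52.13 and 50.02 in knockdown, a log2 change of -0.87 ± 0.034 (SE, adjusted p = 2.57e-56). FSTL3 had 91.68 and 86.4 FPKM in control and 65.23 and 63.53 in knockdown, a log2 change of -0.39 ± 0.0377 (adjusted p = 1.4e-18). FSTL1 went the other way, from 187.06 and 187.05 FPKM to 209.44 and 209.11, with 0.20 ± 0.02 (adjusted p = 6.15e-18). FST fell by 0.14 (adjusted p = 0.00381), with an adjusted p of 0.0678 without control replicate 2 and a log2 change of -0.03 with length and GC trends removed. In the cell, TOB1, which restrains SMAD signalling, rose from 6.44 and 6.16 FPKM to 8.53 and 8.44 (log2 change 0.52 ± 0.129, adjusted p = 0.000288). The SMAD corepressors SKIL and SKI rose by 0.32 (adjusted p = 7.52e-14) and 0.18 (adjusted p = 4.45e-05), SKIL having 0.07 with length and GC trends removed and SKI an adjusted p of 0.0601 by limma on log2(FPKM + 1). The ubiquitin ligase gene SMURF2 rose by 0.12 (adjusted p = 0.00597; 0.457 without control replicate 1 and 0.101 without knockdown replicate 2). The feedback genes SMAD6, SMAD7 and BAMBI, known like ID1 as BMP targets, did not pass in the count fit, and their groups overlapped in FPKM. Their log2 changes were 0.07, -0.09 and -0.01. BAMBI passed as higher with length and GC trends removed (0.30, adjusted p = 0.0139) and SMAD6 with limma on log2(TPM + 1) (0.23, adjusted p = 0.0306).

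**Figure D5:**
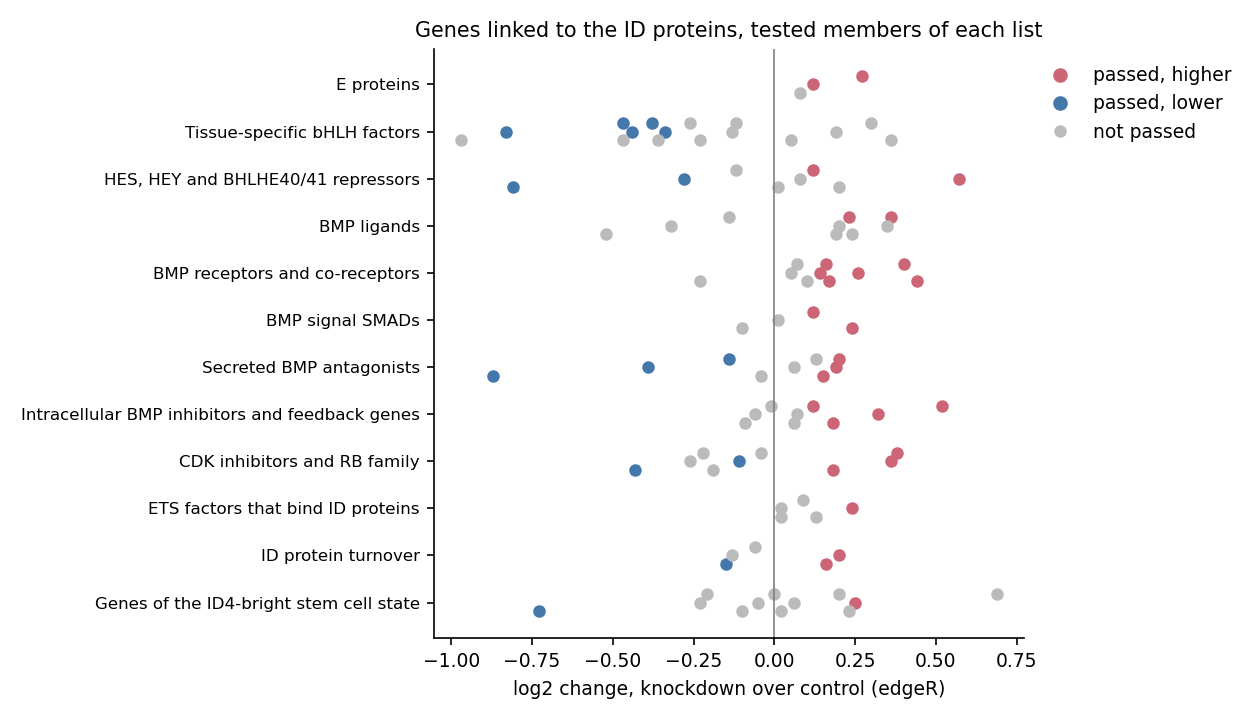
Log2 change, knockdown over control (horizontal axis), of each tested gene in 12 lists linked to the ID proteins (vertical axis). Red and blue points passed edgeR's test as higher or lower and grey points did not. In this fit 5 of 16 tissue-specific bHLH factors passed as lower and 6 of 10 BMP receptors and co-receptors as higher, against 23.8% and 22.7% over all genes. With length and GC trends removed the counts were 2 and 5, against 3161 lower and 3093 higher of 15763 genes. With limma on log2(FPKM + 1) 1 of 10 receptors was higher, against 1926 of 13072 genes.

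Further lists held genes that act below the ID proteins or set their amount. Of 9 tested CDK inhibitors and RB family genes, 3 rose and 2 fell, against 22.7% higher and 23.8% lower over all genes. The pocket protein genes RB1 (7.27 and 6.67 FPKM in control, 9.96 and 9.56 in knockdown) and RBL1 (7.39 and 7.17, then 9.2 and 9.69) rose by 0.36 ± 0.0655 (log2, SE; adjusted p = 7.87e-07) and 0.38 ± 0.0597 (adjusted p = 1.19e-08) and kept their calls in all alternatives. ID2 is known to bind RB1. CDKN1A, a CDK inhibitor that E proteins can induce, had 122.41 and 124.51 FPKM in control and 109.75 and 108.15 in knockdown, with a log2 change of -0.11 (adjusted p = 0.000498) that was 0.03 once length and GC trends were removed. CDKN2B fell by 0.43 by counts (adjusted p = 0.00209; 0.0748 without control replicate 1) but had 0.27 with the effective length offset. CDKN1B had -0.04 (adjusted p = 0.62).

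Of the ETS factors that ID proteins can bind, ELK3 rose by 0.24 (adjusted p = 2.75e-07), and ETS1, ETS2, ELK1 and ELK4 lay between 0.02 and 0.13 and did not pass in the count fit. With length and GC trends removed ELK1 passed as higher (0.19, adjusted p = 0.00518), and ELK4 (-0.13, adjusted p = 0.00868) and ETS1 (-0.08, adjusted p = 0.0262) passed as lower. ELK1 also passed without control replicate 1 (0.23, adjusted p = 0.00942), and ELK1 (0.20, adjusted p = 0.0329) and ELK4 (0.14, adjusted p = 0.0216) without knockdown replicate 2. With the replicate block ELK1 and ELK4 had adjusted p-values of 0.0387 and 0.0465. For protein turnover, the deubiquitinase gene USP1, whose product stabilises ID proteins, rose by 0.16 (adjusted p = 0.000192) and its cofactor WDR48 by 0.20 (adjusted p = 4.41e-06), USP1 having -0.04 with length and GC trends removed and WDR48 an adjusted p of 0.095 by limma on log2(FPKM + 1). FZR1 fell by 0.15 by counts (adjusted p = 0.00284; 0.0748 without knockdown replicate 2) and had 0.18 with the effective length offset. CDC20 and COPS5 had -0.13 and -0.06 and did not pass, while limma on log2(FPKM + 1) gave -0.20 (adjusted p = 0.0201) and -0.17 (adjusted p = 0.0472), and removing length and GC trends 0.08 and 0.09. Of 12 tested genes linked to spermatogonia with high ID4, BMI1 rose by 0.25 (adjusted p = 3.69e-08; 0.0618 with limma on log2(FPKM + 0.1)) and EGR4, at 1.65 FPKM or less, fell by 0.73 (adjusted p = 0.00655; 0.139 without control replicate 1 and 0.0972 without knockdown replicate 1), while ETV5 had -0.05. In this list 12 of 15 genes were below 1 FPKM in every library. Over these 4 lists 11 of 31 tested genes (35.5%, against 46.4% over all genes) passed, 7 higher and 4 lower. The balance turned with the scaling: limma on log2(FPKM + 1) gave 4 higher and 6 lower, and limma on log2(TPM + 1) 12 higher and 0 lower. That of all called genes turned the same way, with 34.3% higher in the former and 75.6% in the latter, so nothing about these lists is read from it.

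Cell type markers also differed between the groups. SOX9, a Sertoli cell factor, had 20.62 and 21.26 FPKM in control and 29.22 and 29.87 in knockdown (log2 change 0.54 ± 0.043, adjusted p = 3.25e-24), WT1 rose by 0.36 (adjusted p = 2.6e-10) and CLDN11 by 0.51 (adjusted p = 9.28e-41), while AMH fell by 0.64 (adjusted p = 5.52e-09). DHH was the other Sertoli cell marker that fell, a call lost with limma on log2(TPM + 1) (-0.44, adjusted p = 0.0715). Peritubular and stromal markers gave 5 rises and 5 falls among 12 tested, and leukocyte markers 1 rise and 3 falls among 9. Leydig cell markers gave 2 falls and no rise among 7 tested, and endothelial markers 1 fall and no rise among 9. Over all genes 22.7% were higher and 23.8% lower. Germ cell markers moved both ways. UCHL1 fell by 0.33 (adjusted p = 1.24e-10), a call lost with the length trend removed (adjusted p = 0.0653) and with length and GC trends removed (-0.04, adjusted p = 0.571). DND1 fell by 1.27 (adjusted p = 1.39e-13) and PIWIL4 by 0.49 (adjusted p = 0.000573; 0.0622 without control replicate 1), while DAZL rose by 0.54 (adjusted p = 3.3e-05; 0.0515 with limma on log2(FPKM + 1)) and SALL4, at 0.51 FPKM or less, by 1.02 (adjusted p = 0.00287). The part of cell composition, and of the difference in fragment length beyond the trends removed above, in the values of the ID genes and their linked lists was not tested.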

How the data were processed

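Reads were made on an MGI instrument, cleaned with SOAPnuke 2.1.0 and mapped to the pig genome Sscrofa 11.1 with HISAT2 2.2.1 and to transcripts with bowtie2 2.3.5, per the labels' protocols. The authors used RSEM 1.3.3, per the labels, and deposited expected counts, FPKM, TPM and gene lengths for each library. Of the deposited expected counts above 0, 83.7% to 84.7% were whole. They were rounded and fitted across 15763 genes with edgeR 4.0.16 in R 4.3.3 (TMM, filterByExpr with minimum count 10 and minimum total 15, quasi-likelihood test, two-sided, Benjamini-Hochberg, threshold 0.05). "Rose" and "fell" are used of genes past it. Alternatives were DESeq2 1.42.0, limma 3.58.1 on log2 FPKM or TPM (deposited values of at least 1 in 2 libraries, pseudocount 1 or 0.1, or no filter), other scalings, no filter on low counts, effective length offsets, removal of length and GC trends with mgcv 1.9.3 (GC known for 96.95% of tested genes), a replicate block, and each library left out; the offset with 1 length per gene was added after seeing the data. Mean fragment length was read from deposited length minus effective length. A gene's GC content was the plain mean over its annotated transcripts. Members and lists were chosen with earlier results of these data known. Named genes were all 4 members, ZBTB16, every gene of a list with at most 5 tested, otherwise up to 4 with the smallest p (with a mean FPKM of 1 or more in 1 group) and up to 2 with the highest mean FPKM, and 3 most alike genes per member. SMAD6, SMAD7, BAMBI and the cell type markers were named after their values were seen. SOHLH2, HJV, CDKN2A, TBXT, NANOS3 and CST9L were not analysed here. The series' planned CUT&Tag and staining were not analysed here. The common biological coefficient of variation was 0.01285, and an exact permutation of 2 against 2 libraries gives a two-sided p of 0.333 at the least, so tests and intervals rest on the spread pooled over genes. Between replicates the chi-square per degree of freedom was 1.206 in control and 1.298 in knockdown, so this spread was little more than counting error.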

Additional observations from a re-analysis of the deposited data

How the results depend on the processing

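The sign of each ID gene's log2 change was the same in all 17 alternatives run. With limma on log2(FPKM + 1), on log2(FPKM + 0.1) and on log2(FPKM + 1) with no filter, ID1 had -0.68 in all 3 and ID3 -0.64 in all 3, ID2 had 0.74, 0.75 and 0.74, and ID4 0.20, 0.21 and 0.20. With limma on log2(TPM + 1), where the median of all genes was 0.15, ID1 had -0.45, ID2 0.97, ID3 -0.42 and ID4 0.42. With the effective length offset ID1 had -0.63, ID3 -0.59 and ID4 0.26, and with 1 length per gene ID1 had -0.62 and ID3 -0.59. With the length trend removed the values were -0.31, 1.03, -0.25 and 0.17 for ID1 to ID4, and with length and GC trends removed -0.19, 1.01, -0.14 and 0.24. Leaving out 1 library gave -0.56 to -0.52 for ID1, 0.83 to 0.89 for ID2, -0.52 to -0.48 for ID3 and 0.10 to 0.12 for ID4. The replicate block gave -0.54, 0.86, -0.49 and 0.11 and 7480 genes called; replicate differences correlated at 0.01844 between groups over 12390 genes, so the numbers were not taken as pairs.

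Of 15763 genes 7319 were called (48.8% of them higher), against 4452 with DESeq2, 4283 with limma without a filter, and 6040 to 6265 with 1 library left out. The higher share was 34.3% with limma on log2(FPKM + 1) and 75.6% with TPM. HLH factors called were 11, against 5 with DESeq2, 6 with limma without a filter, 7 with length and GC trends removed and 6 to 10 with 1 library left out. BMP pathway genes called were 20, against 13 with DESeq2, 9 with limma at either pseudocount, 8 without a filter, 26 with limma on log2(TPM + 1), 22 with the replicate block and 15 to 19 with 1 library left out. Other linked genes called were 11, against 7 with DESeq2, 5 with limma without a filter, 14 with the replicate block and 10 to 11 with 1 library left out. For single genes, lost calls are given above as examples and not in full. Besides ZBTB16, DESeq2 lost the calls of the HLH factors TCF4, MESP2, TWIST2, HES1 and BHLHE40. Among other named genes it lost those of BMP4, SMAD9, FST, SMURF2, CDKN2B, FZR1, EGR4 and PIWIL4. The cause of these differences was not tested. With 2 libraries a group, tests rest on few replicates.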
